A study of Mus musculus with 6 samples.

Results

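The chemokine system was read on 6 two-colour Agilent arrays through the 71 probes that the array design names as a numbered CC, CXC, C or CX3C chemokine ligand or receptor. They are 71 of the 55681 non-control probes and stand for 54 of its 34821 gene or transcript names, 35 ligands and 19 receptors. All 6 RNA samples came from mammary glands of virgin female mice, and the labels give no age. The first pair came from mice labelled C57/B6:Dll1-mCherry, in which mCherry reports Dll1, a Notch ligand. Their CD24+ CD29-high cells, the gate of the gland's basal layer and labelled MaSC, were sorted into an mCherry+ fraction, called Dll1-high here, and an mCherry- fraction, called Dll1-low, with 1 array each. The other 4 samples were F4/80+ macrophages, 2 from mice labelled C57/B6:cKO-Dll1 (KO) and 2 from their wild type littermates, labelled C57/B6 (WT). The labels name neither the Cre driver of the conditional knockout nor the cells in which Dll1 was deleted. Every sample was labelled with Cy5 and hybridised together with Cy3-labelled universal reference RNA, pooled from 11 mouse cell lines. Levels are log2 ratios of sample over this reference after background correction and loess normalization, so 1 unit is a doubling. The dyes were never swapped, so any preference of a probe for 1 dye is part of its ratio. A gene with several probes was read by the one of highest mean signal.

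Chemokines are small secreted proteins that direct the movement of leukocytes. They bind receptors coupled to G proteins, mostly CC ligands to CC receptors and CXC ligands to CXC receptors, while a few atypical receptors take ligands up without that signal. Macrophages are both sources and targets of chemokines, and in the mammary gland chemokine receptors take part in the recruitment of macrophages around ducts and growing end buds.

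The arrays differed in quality as well as in cell type. The scanner software called the Cy5 signal well above background for 85.57% of probes with Dll1-high cells, 87.74% with Dll1-low cells and 45.96% to 71.33% with macrophages. Of the 71 chemokine probes, 56 to 63 per array passed that call. Both CD24+ CD29-high samples lay on 1 slide and the 4 macrophage samples on another, so the effects of slide and of cell type cannot be told apart. Row 1 of the second slide held replicate 1 of KO and WT, and row 2 held replicate 2. Both KO arrays lay in its column 4 and both WT arrays in column 3, so genotype and column cannot be told apart. WT replicate 1 stood apart from the other macrophage arrays. The median ratio of 10 macrophage markers, Csf1r and Emr1 (the F4/80 antigen) among them, was 4.06, 3.65 and 3.57 on KO replicate 1, KO replicate 2 and WT replicate 2, and 1.64 on WT replicate 1. That of 6 fibroblast markers was -1.42, -1.59 and -2.04 on those 3 arrays and 0.24 on WT replicate 1. Values without WT replicate 1 are therefore given where leaving it out changed a call or a count, and its part in the results beyond that was not tested. Most defining markers bore out the labels' cell types. The 8 basal markers, Krt5 and Krt14 among them, had median ratios of 4.52 and 4.14 in the CD24+ CD29-high samples against 0.36 to 0.64 in the macrophages. Of these, 7 lay above all macrophage arrays in both samples (15.9% of all probes did). Trp63 did not, at 0.47 and 0.77 against 1.51, 0.11, 3.23 and 0.31 in KO and WT macrophages. Of the 10 macrophage markers, 9 lay below (17.3% of probes did), and Mertk overlapped (means of 0.79 and 0.62). The Dll1 probe of higher signal read 3.94 with Dll1-high cells, 3.26 with Dll1-low cells, and 0.80 and 2.25 in KO against 0.78 and 3.24 in WT macrophages, so the genotypes overlapped there.

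Of the 71 chemokine probes, 56 shared no run of 16 bases with a probe of another gene, and 14 of the others shared one with only 1 or 2 such probes. The brighter Cxcl11 probe shared bases with 19, and Cxcl11 is therefore read with reservation. Both Cxcl11 probes, named for an interferon-induced ligand of Cxcr3, were among the brightest probes in both dyes. They are printed here because their bases recur on the array; capitals mark every base that lies in a run of 16 bases also found, on either strand, in a probe of another gene. The first lies at chr5:92788567-92788626 and the second at chr5:92788640-92788699, both on the minus strand of mm9, per the file headers.
Cxcl11 brighter probe: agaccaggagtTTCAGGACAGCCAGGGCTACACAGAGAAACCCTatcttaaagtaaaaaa
Cxcl11 second probe: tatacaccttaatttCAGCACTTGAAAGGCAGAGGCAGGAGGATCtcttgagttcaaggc
In the brighter probe 33 of 60 bases, and in the second 30, are shared in this way, and the stretch in capitals reads like a rodent B1 short interspersed repeat. The second probe shared bases with 2 probes of other genes. Longer stretches recurred in secondary probes of Ccl25 (all 60 bases) and Ccl27a (50 bases), each shared with 1 probe of another gene. A 16-base stretch of the brighter probe's capitals also occurred in 53 of 32851 RefSeq promoter windows of 300 bases (GRCm38.p6).

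The brighter Cxcl11 probe had median Cy5 signals of 221891, 279800, 103810, 60054, 53884 and 60636 on the Dll1-high, Dll1-low, KO replicate 1, KO replicate 2, WT replicate 1 and WT replicate 2 arrays. These lay between percentiles 99.65 and 99.94 of all non-control probes. In Cy3, the reference RNA, it lay between percentiles 98.76 and 99.82. It passed the 99th percentile in 11 of its 12 readings (2 dyes on 6 arrays). No chemokine probe passed it in all 12, against 141 of 55681 probes (0.253%) on the whole array, and both Cxcl11 probes passed the 95th percentile in all 12, against 1248 probes (2.24%). Its log2 ratios were 0.22 in Dll1-high, 0.91 in Dll1-low, 2.10 and 0.80 in KO, and 2.91 and 0.51 in WT macrophages. The 21 probes of other genes that share bases with either Cxcl11 probe had median ratios of 0.55, 1.02, 1.63, 0.71, 2.93 and 0.52 on the same arrays. Their highest array, like that of Cxcl11, was WT replicate 1 for 19 of the 21. The share of all probes highest on that array was not counted, and the median ratio of all probes there was 0.04. Of the 21, 10 lay above the 95th percentile of Cy5 signal on their median array (47.62%, against 4.71% of all probes). Among them is a probe for Rn4.5s, a short RNA related to B1, with ratios of 0.38, 1.21, 1.67, 1.06, 3.13 and 0.68. Cxcl9 and Cxcl10, the other ligands of Cxcr3, had a different order of arrays, with their highest macrophage value on KO replicate 2. Values for Cxcl11 are given below with this reservation, and what its probes bound was not tested.

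**Figure D1:**
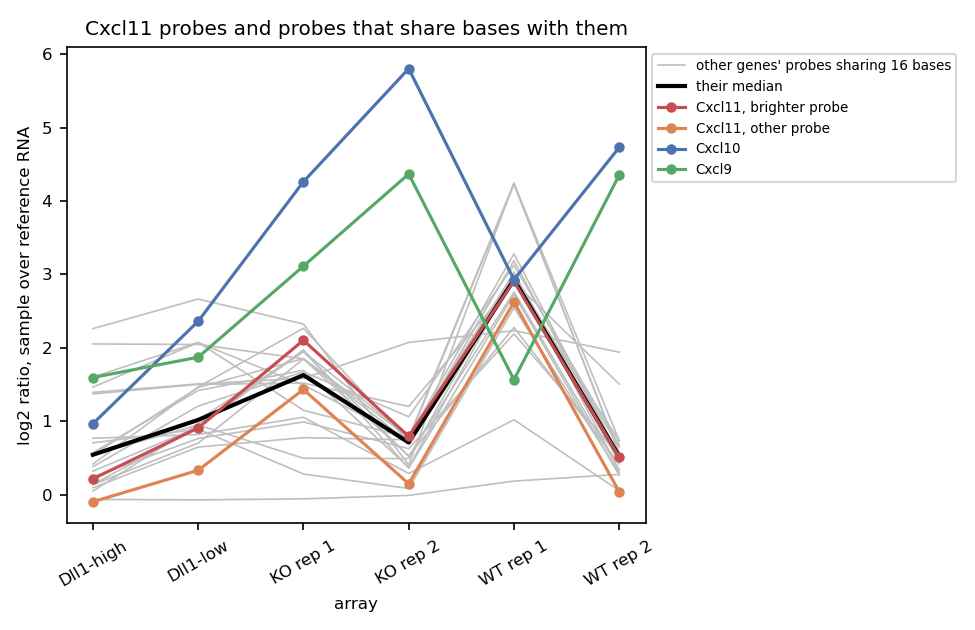
Log2 ratio of sample over reference RNA on each of the 6 arrays for both Cxcl11 probes, Cxcl10, Cxcl9 and the 21 probes of other genes that share 16 bases with a Cxcl11 probe (grey lines; black line, their median). The Cxcl11 probes run along the black line with their highest value on WT replicate 1, while Cxcl9 and Cxcl10 are highest on KO replicate 2.

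Chemokine genes with higher ratios in the CD24+ CD29-high cells were few. Those called in the fit described below were the ligands Cxcl14, Cx3cl1 and Ccl27a and the receptors Cxcr7 and Ccr8. Cxcl15, a ligand known from lung epithelium, also lay higher in both Dll1 fractions (0.90 and 0.43 against 0.13 to 0.30) but was not called. Cxcl14 is a ligand made by many epithelia. Its ratios were 4.78 in Dll1-high, 4.87 in Dll1-low, 0.49 and 1.38 in KO and -0.27 and 0.69 in WT macrophages. The Dll1 fractions were alike and lay far above every macrophage array, by 4.25 ± 0.44 (difference of means ± SE). Cx3cl1, or fractalkine, is made as a membrane-bound protein that can hold cells and be shed. It read 2.06 and 2.01 in the Dll1 fractions against -1.06, -0.81, -0.56 and -0.67 in KO and WT macrophages, a difference of 2.81 ± 0.18 with no overlap. Ccl27a, a skin and mucosal ligand of Ccr10, read 2.52 and 2.03 against -0.20, -0.09, -0.85 and 0.09. Its difference was 2.54 ± 0.30, and all 3 of its probes were higher in both Dll1 fractions, by 1.56 to 2.54, although a pair of them share 48 bases and are not independent readings. That pair also shares 21 bases with 2 probes of other genes and the third shares 50 with 1.

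The receptor Cxcr7, called Ackr3 in RefSeq, is an atypical receptor that takes up Cxcl12 and Cxcl11. It read 3.04 and 2.70 in the Dll1 fractions, against -0.47 and -0.18 in KO and 0.44 and -0.24 in WT macrophages. The groups did not overlap and differed by 2.98 ± 0.28. Ccr8, the receptor of Ccl1 and Ccl8, read 1.64 and 1.25 against -0.33, 0.46, -0.05 and 0.25, a difference of 1.36 ± 0.26. A second Ccr8 probe did not show this, at -0.12 for the same difference, so the probes of Ccr8 disagree. That second probe was not well above background on any macrophage array.

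The other direction held more genes. The planned limma fit, with 4 group means and only 2 residual degrees of freedom, called 0 of 47174 probes at an adjusted p of 0.05 in either direction (0% of all probes), chemokine probes included. The lowest adjusted p among them was 0.0542, for Ccl9 and Ccr7. At an unadjusted p under 0.05, 5 chemokine genes were higher in CD24+ CD29-high cells and 22 in macrophages, against 6.41% and 6.74% of all probes. A fit of cell type as 2 groups, chosen after these values were seen, takes its spread over all 6 arrays. It treats the 2 Dll1 fractions, with 1 array each, as replicates of one another, and pools KO with WT macrophages. It called 5 of the 51 chemokine genes tested as higher in CD24+ CD29-high cells, the genes above, where 3.55% of 47203 probes were called. It called 18 as higher in macrophages, where 3.76% of probes were called. The members' median difference was -1.33 and that of all probes -0.03. Without WT replicate 1 the same fit called 5 and 29 chemokine genes (8.14% and 9.93% of probes), and without any 1 of the other macrophage arrays 4 to 5 and 14 to 17. Called in each of these 5 fits were 4 genes in the first direction, without Ccr8, and 14 in the second. The 4 others of the 18 lost their call when an array other than WT replicate 1 was left out: Ccl7 and Cxcl16 without WT replicate 2 (adjusted p of 0.0744 and 0.0512, limma), Ccr9 without KO replicate 2 or WT replicate 2 (0.0869 and 0.0888), and Ccr6 without any of the 3 (0.0656 to 0.0879). Of the 18 genes, 15 were well above background on all 6 arrays, while 6 of the 51 genes tested passed the filter through macrophages alone and 3 through CD24+ CD29-high cells alone. The other 3 of the 54 genes had too few such readings to be tested. At least 2-fold apart were 5 genes higher in CD24+ CD29-high cells (5.33% of probes) and 30 higher in macrophages (7.06%). In bulk RNA, a difference between 2 sorted populations cannot separate the share of expressing cells from the RNA per cell.

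**Figure D2:**
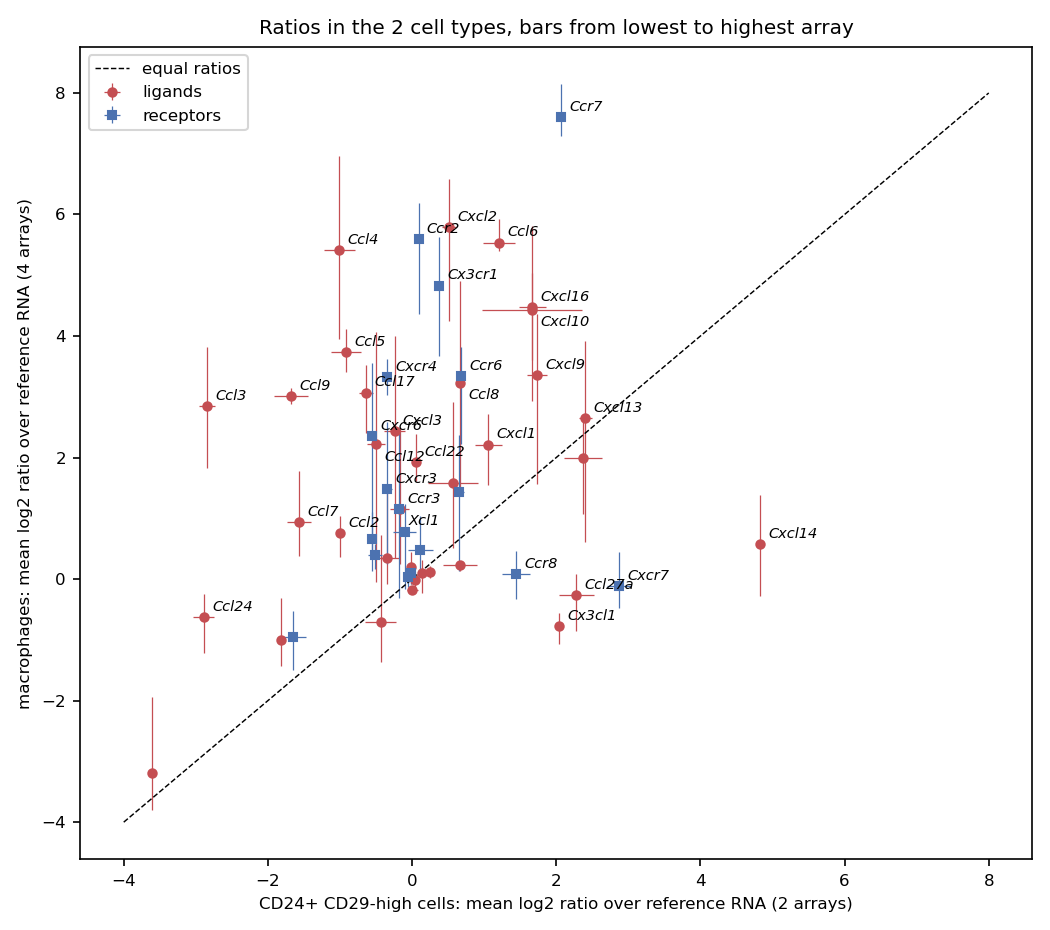
Mean log2 ratio over reference RNA of 35 chemokine ligands (red circles) and 18 receptors (blue squares) in the CD24+ CD29-high samples (x axis) and the macrophage samples (y axis), with bars from the lowest to the highest array. Cxcl14, Cxcr7, Cx3cl1, Ccl27a and Ccr8 lie below the dashed line of equal ratios, and most other genes lie on or above it, with Ccr7 highest.

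The macrophage side was led by inflammatory CC ligands. Ccl4 and Ccl3 are typical products of activated macrophages. Ccl4 read -1.22 and -0.80 in the Dll1 fractions, 4.91 and 6.96 in KO and 3.95 and 5.82 in WT macrophages. Every macrophage array was far above both Dll1 fractions, by 6.42 ± 0.81 on average (limma, cell type as 2 groups, adjusted p = 0.0091). Ccl3 read -2.96 and -2.74 against 2.74, 3.82, 1.83 and 2.99, a difference of 5.69 ± 0.52. Ccl5, which attracts T cells, monocytes and eosinophils, read -1.13 and -0.70 against 3.41, 4.12, 3.51 and 3.89. Its macrophage values were close together, and the difference was 4.65 ± 0.26. Ccl9 and Ccl6 are rodent ligands of the myeloid lineage. Ccl9 read 2.88, 3.15, 3.06 and 2.96 in macrophages, values close together, against -1.92 and -1.44. Ccl6 read 0.99 and 1.42 against 5.40 in KO replicate 2 and 5.92 and 5.43 in WT, its spot on KO replicate 1 having been marked by the scanner software and left out.

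Other CC ligands were higher in macrophages by smaller amounts. Ccl17 and Ccl22, the ligands of Ccr4 that dendritic cells and macrophages make, read 2.41 to 3.52 and 1.61 to 2.38 in macrophages against -0.73 and -0.54, and 0.04 and 0.08, in the Dll1 fractions. Ccl22 was not well above background in either Dll1 fraction, so its level there is only a bound. The macrophage mean was 3.63-fold higher by the ratios to the reference and at least 6.30-fold by Cy5 signal alone, which compares signals between the slides. Ccl2 and Ccl7 are the main ligands of Ccr2 and recruit monocytes. Ccl2, the only chemokine probe spotted 10 times, read -1.01 and -0.98 against 1.01, 1.04, 0.62 and 0.37, with a spread over spots of 0.03 to 0.08 (SD) per array. Its difference of 1.75 ± 0.23 was called, and so was that of Ccl7, 2.50 ± 0.43. Ccl24, an eosinophil attractant, was below the reference on every array but less so in macrophages (-1.22 to -0.25) than in the Dll1 fractions (-3.03 and -2.75). Ccl8 and Ccl12, further ligands of monocyte receptors, were above both Dll1 fractions on all 4 macrophage arrays but varied widely. Ccl8 read 2.00, 4.64, 1.39 and 4.90, and Ccl12 read 1.41, 4.06, -0.04 and 3.46, with replicate 2 of both genotypes the higher one, and neither difference was called. Without WT replicate 1 Ccl12 was called (adjusted p = 0.0372, limma, cell type as 2 groups) and Ccl8 was not (0.0705).

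Among CXC ligands, Cxcl2 and Cxcl16 were called. Cxcl2 attracts neutrophils through Cxcr2. It read 0.42 and 0.60 in the Dll1 fractions and 5.92, 6.42, 4.25 and 6.58 in KO and WT macrophages, a difference of 5.28 ± 0.67. Cxcl16, a transmembrane ligand of Cxcr6, was above the reference everywhere, at 1.85 and 1.48 against 4.39, 5.04, 3.61 and 4.86. Cxcl1 and Cxcl3, which share Cxcr2 with Cxcl2, had higher ratios on all macrophage arrays without being called. Without WT replicate 1 both were called, with adjusted p of 0.0136 and 0.0147 (limma, cell type as 2 groups). Cxcl3 was not well above background in either Dll1 fraction, and was 6.41-fold higher in macrophages by the ratios and at least 8.11-fold by Cy5 signal alone. The interferon-induced ligand Cxcl10 read 0.97 and 2.36 against 4.26, 5.80, 2.93 and 4.73, without overlap but with an adjusted p of 0.12 (limma, cell type as 2 groups). Cxcl9 overlapped between the cell types because WT replicate 1, at 1.57, lay below both Dll1 fractions, at 1.60 and 1.87. Without that array both were called, with adjusted p of 0.0192 and 0.0222.

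Receptors in macrophages were led by Ccr7, Ccr2, Cx3cr1 and Cxcr4. Ccr7 brings mature dendritic cells and lymphocytes to lymph nodes. Its ratios were 2.01 and 2.12 in the Dll1 fractions and 7.64, 7.29, 8.15 and 7.35 in the macrophages, a difference of 5.54 ± 0.27 (adjusted p = 0.00075, limma, cell type as 2 groups). Median ratios of marker lists of other leukocytes were also above those of the Dll1 fractions on these arrays, though single markers were not all so. Cd3e read 0.56 and 0.70 in the Dll1 fractions against 0.94, 0.18, 1.21 and -0.14 in KO and WT macrophages. Cd4 read 2.22 and 2.78 against 3.85, 1.48, 3.90 and 1.73, and the neutrophil marker Ly6g hardly differed (-0.08). Flt3, a dendritic cell receptor, read 3.09 to 3.75 on the macrophage arrays. Over 5 dendritic markers, Ccr7 itself among them, the median was 0.98 to 2.64 on the macrophage arrays and 0.10 to 0.24 on the other 2. Over 4 B cell markers it was 0.45 to 1.83 against -0.37 and -0.31, over 5 T cell markers 0.72 to 1.91 against 0.56 and 0.59, and over 5 neutrophil markers 0.14 to 3.84 against -0.07 and -0.11. The part of such cells in the Ccr7 level, or in that of any other member, was not tested.

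Ccr2 carries monocytes into tissue. Its probe was not well above background in either Dll1 fraction and read 5.81, 6.19, 4.36 and 6.01 in macrophages. The macrophage mean was 45.3-fold higher by the ratios and at least 58.2-fold by Cy5 signal alone, the level in the Dll1 fractions being only a bound. Cx3cr1, the receptor of Cx3cl1, read 0.33 and 0.42 against 4.61, 5.64, 3.66 and 5.41. WT replicate 1 was the lowest macrophage array for both genes by these probes, and still far above the Dll1 fractions. All 3 Cx3cr1 probes were higher in macrophages on average, by 1.04 to 4.66, and a pair of them share 55 bases. The third Cx3cr1 probe overlapped, at 0.02 and 0.04 against 1.68, 1.56, -0.19 and 1.24 in KO and WT macrophages. It was not called (adjusted p = 0.373, limma, cell type as 2 groups). Cxcr4, the signalling receptor of Cxcl12, read -0.39 and -0.31 against 3.21, 3.62, 3.04 and 3.42. Its macrophage values lay close together, and the difference was 3.67 ± 0.20. Ccr6, the receptor of Ccl20, was called too (2.66 ± 0.48), as was Ccr9, by a smaller 0.90 ± 0.17 that its second probe (0.05 in the other direction) did not show. The second Ccr9 probe was not well above background on any macrophage array.

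The receptors Cxcr6, Cxcr3 and Ccr3 were above the Dll1 fractions on most macrophage arrays and not called. Cxcr6 read -0.58 and -0.54 against 3.56, 2.30, 0.40 and 3.15, and Cxcr3, found on activated T cells, -0.28 and -0.40 against 0.72, 2.59, 0.26 and 2.33. Ccr3, an eosinophil receptor, overlapped: its ratio on WT replicate 1, -0.31, was below the -0.18 and -0.19 of the Dll1 fractions. WT replicate 1 was the lowest macrophage array for each of them, and without it Cxcr6 and Ccr3 passed the threshold (adjusted p of 0.00344 and 0.0396, limma), as did Ccr1, Ccr10 and Cxcr5 (0.0158, 0.0442 and 0.0423). Ccr1 entered the test through macrophages alone. It was not well above background in either Dll1 fraction, so its level there is only a bound. Over the 50 genes read on all 6 arrays, both Dll1 fractions lay above all macrophage arrays for 6 genes (15.9% of all probes did) and below them all for 29 (17.3%). Without WT replicate 1 these counts were 7 and 37 (24.9% and 24.5%).

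**Figure D3:**
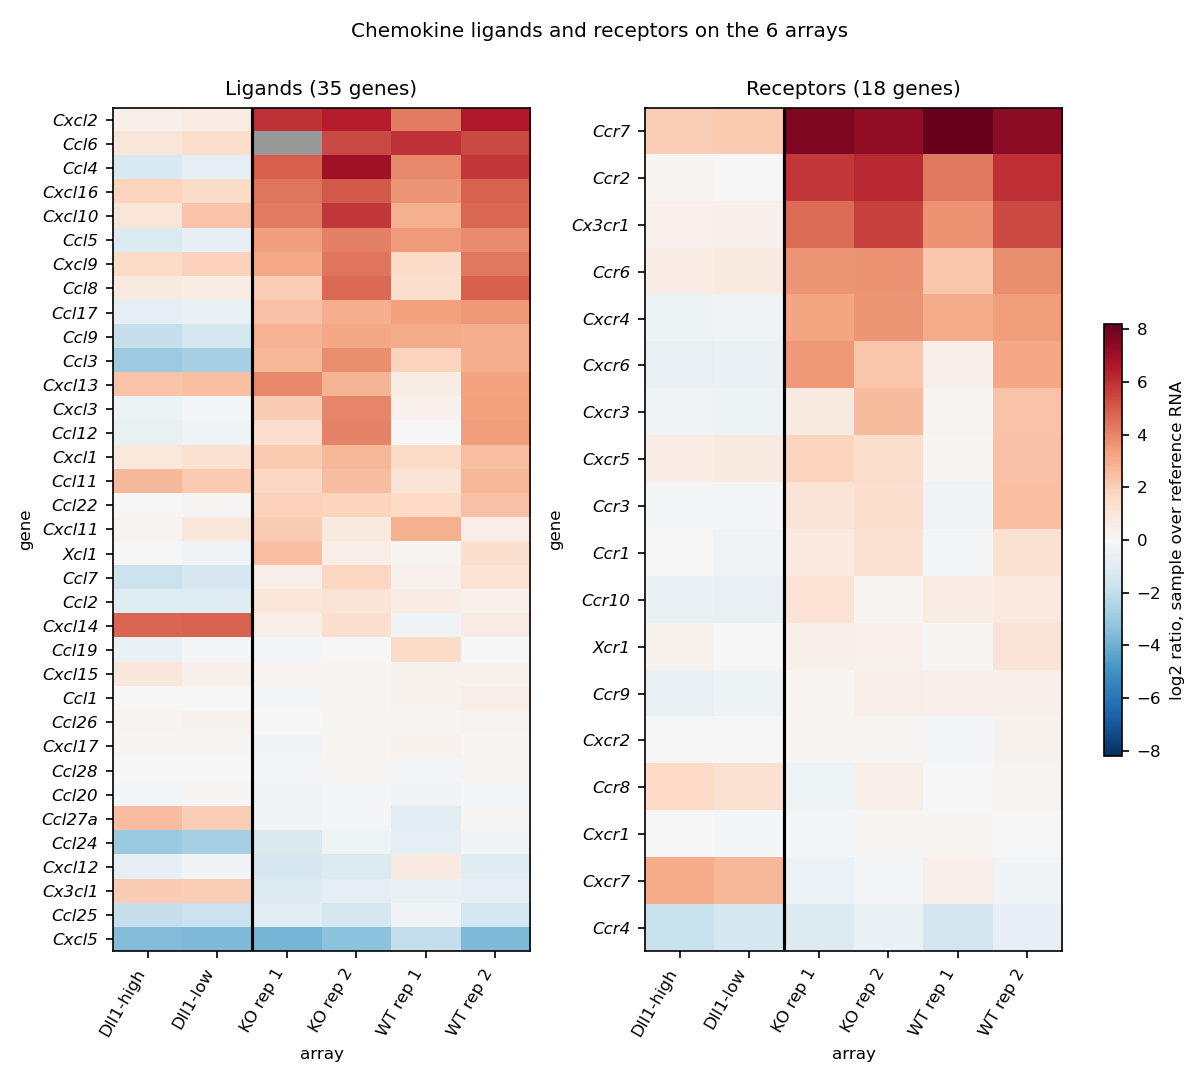
Log2 ratio over reference RNA (colour; grey, spot left out) of 35 ligands and 18 receptors on each array, ordered by their macrophage mean, with a line between the CD24+ CD29-high and the macrophage samples. Cxcl14, Cx3cl1, Ccl27a, Cxcr7 and Ccr8 are redder on the left than on any macrophage array. WT replicate 1 is paler than the other macrophage arrays for Cxcr6, Ccl12 and Cxcl3.

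Several ligands did not separate the cell types. Ccl11, the eosinophil attractant eotaxin, read 2.63 and 2.11 in the Dll1 fractions and 1.69, 2.50, 1.08 and 2.70 in macrophages. Cxcl13, the B cell attractant, read 2.31 and 2.50 against 3.92, 2.77, 0.61 and 3.27. Both were above the reference on all arrays, with overlapping ranges. For Cxcl13 the overlap came from WT replicate 1: the other 3 macrophage arrays lay above both Dll1 fractions, though the gene was not called without it (adjusted p = 0.141, limma, cell type as 2 groups). Cxcl12, the main ligand of Cxcr4, was below the reference on 5 of 6 arrays, between -1.37 and -0.22, and above it, at 0.72, on WT replicate 1 alone. Its second probe lacked that rise and did separate the cell types, at -0.86 and -0.67 against -0.97, -2.43, -2.17 and -2.23, a difference of 1.19 ± 0.43 that was not called (adjusted p = 0.191, limma, cell type as 2 groups). Cxcl5 was far below the reference throughout, from -3.80 to -1.95.

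Ligands in one cell type were then set beside their receptors in the other. Of 39 textbook pairs on the array, 24 had the ligand well above background on both CD24+ CD29-high arrays and the receptor on all 4 macrophage arrays, and 27 had the reverse. Since most probes on the array passed that call, it is a loose criterion. With both partners on average at least 2-fold over the reference RNA, 6 and 2 pairs remained. Cx3cl1 and Cx3cr1 were the first of the 6, with a mean of 2.04 for the ligand among CD24+ CD29-high cells and of 4.83 for the receptor among macrophages. This was the only pair whose ligand was called as higher in one cell type and whose receptor in the other. Cxcl16 and Cxcr6 followed at 1.67 and 2.35, yet both partners were higher in macrophages. The others were Cxcl10 and Cxcl9 (1.67 and 1.74) with Cxcr3 (1.47), Cxcl13 (2.40) with Cxcr5 (1.44), and Ccl11 (2.37) with Ccr3 (1.15). Ccl27a and Ccr10, just short of the 2-fold rule at 2.28 and 0.66, lay on opposite sides of the other cell type's range, the ligand above and the receptor below.

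In the reverse direction the 2 pairs were Cxcl11 with Cxcr7 (1.58 in macrophages and 2.87 in CD24+ CD29-high cells) and Ccl8 with Ccr8 (3.23 and 1.44). The first rests on the Cxcl11 probe described above, and the second on the brighter of 2 Ccr8 probes that disagree. For Cxcl12 the partners split by cell type: Cxcr7 was the receptor over the reference in CD24+ CD29-high cells (2.87, against -0.11 in macrophages) and Cxcr4 in macrophages (3.32, against -0.35). The ligand itself had means below the reference in both, -0.44 and -0.70. The macrophage ligands Cxcl1, Cxcl2 and Cxcl3 met their receptor Cxcr2 at a mean of -0.01 in CD24+ CD29-high cells.

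The knockout and wild type macrophages were compared to ask whether loss of Dll1 changed chemokine expression in macrophages of the gland. No chemokine gene passed the test. limma called 0 of 34907 probes in either direction (0%), and at an unadjusted p under 0.05 it listed 50 probes (0.143%), no chemokine probe among them. With 2 arrays a genotype, a large change could have been missed. On simulated data the same fit called 0 of 100 probes changed by 4 log2 units. Of the 48 chemokine genes tested, 30 were above 0 in KO minus WT (42.3% of all probes were), with a median of 0.22 against -0.07 over all probes. This rested on single arrays: without WT replicate 1, 14 of 48 were above 0 (49% of probes) and the median was -0.16, and without KO replicate 2, 22 of 47 were (41.5%) and the median was -0.01. Without WT replicate 2 the median was 0.72, and without KO replicate 1 it was 0.41. Within slide row 1, which holds WT replicate 1, the members' median was 0.51, and within row 2 it was 0.07. Macrophage markers moved the same way, with a median KO minus WT of 1.00 in row 1 and 0.38 in row 2. Markers of other cells differed as well. All 6 endothelial markers were lower in KO, with medians of -0.67 in row 1 and -0.71 in row 2. So were 5 of 6 fibroblast markers, with medians of -1.64 and 0.45 over the list. All 4 mast cell markers were higher, with medians of 2.57 and -0.04. The part of any of these cells in the chemokine values was not tested.

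Individual ligands showed this split. Cxcl13 had the largest difference, 1.40 ± 1.04 (SE), with KO at 3.92 and 2.77 and WT at 0.61 and 3.27. It was 3.31 higher in KO within row 1 and 0.50 lower within row 2 (-0.50). Cxcr6 was as uneven, at 3.16 and -0.85. Cxcl10, Ccl4 and Ccl3 differed by similar amounts in both rows. Cxcl10 read 4.26 and 5.80 in KO and 2.93 and 4.73 in WT, which is 1.33 higher in row 1 and 1.07 higher in row 2. Ccl4 was higher by 0.96 and 1.13, and Ccl3 by 0.91 and 0.84. For all of them the genotypes still overlapped, because the rows differed by as much, and their adjusted p was 1 (limma). The second probe of Cxcl10 did not follow, at 0.62 and 1.23 in KO and 0.68 and 1.29 in WT. That probe was dim, with median Cy5 signals of 118.5 to 174 on the macrophage arrays against 1285 to 26123.9 for the first.

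By the probe that stands for each gene, only Ccl2 had both KO arrays above both WT arrays, at 1.01 and 1.04 against 0.62 and 0.37 (1 gene, where 7.34% of probes did). The third Cx3cr1 probe did so too, at 1.68 and 1.56 against -0.19 and 1.24. Both KO arrays lay below both WT arrays for 4 genes (12.9% of probes did): Cxcl12, Ccl17, Ccl1 and Cx3cl1. Ccl17 read 2.41 and 2.98 in KO against 3.36 and 3.52 in WT, a difference of -0.74 ± 0.36. Cxcl12 had the lowest difference, -1.12 ± 0.67, of which -2.10 came from row 1 and -0.15 from row 2. Its second probe went the other way, at 0.50. At least 2-fold apart were 7 genes higher in KO (1.61% of probes), among them Cxcl13, Cxcl10, Cxcl3, Cxcr6, Ccl4 and Ccl12, and 1 lower (4.49%), Cxcl12. The remaining larger negative values were those of Cxcl5 (-0.79), Ccl19 (-0.78), Cxcr7 (-0.43) and Ccr7 (-0.29), each with overlapping genotypes. Ccl1 (-0.34) and Cx3cl1 (-0.32) did not overlap, with an SE of 0.31 each. The second Ccl1 probe did overlap (-0.02) and was not well above background on any macrophage array.

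**Figure D4:**
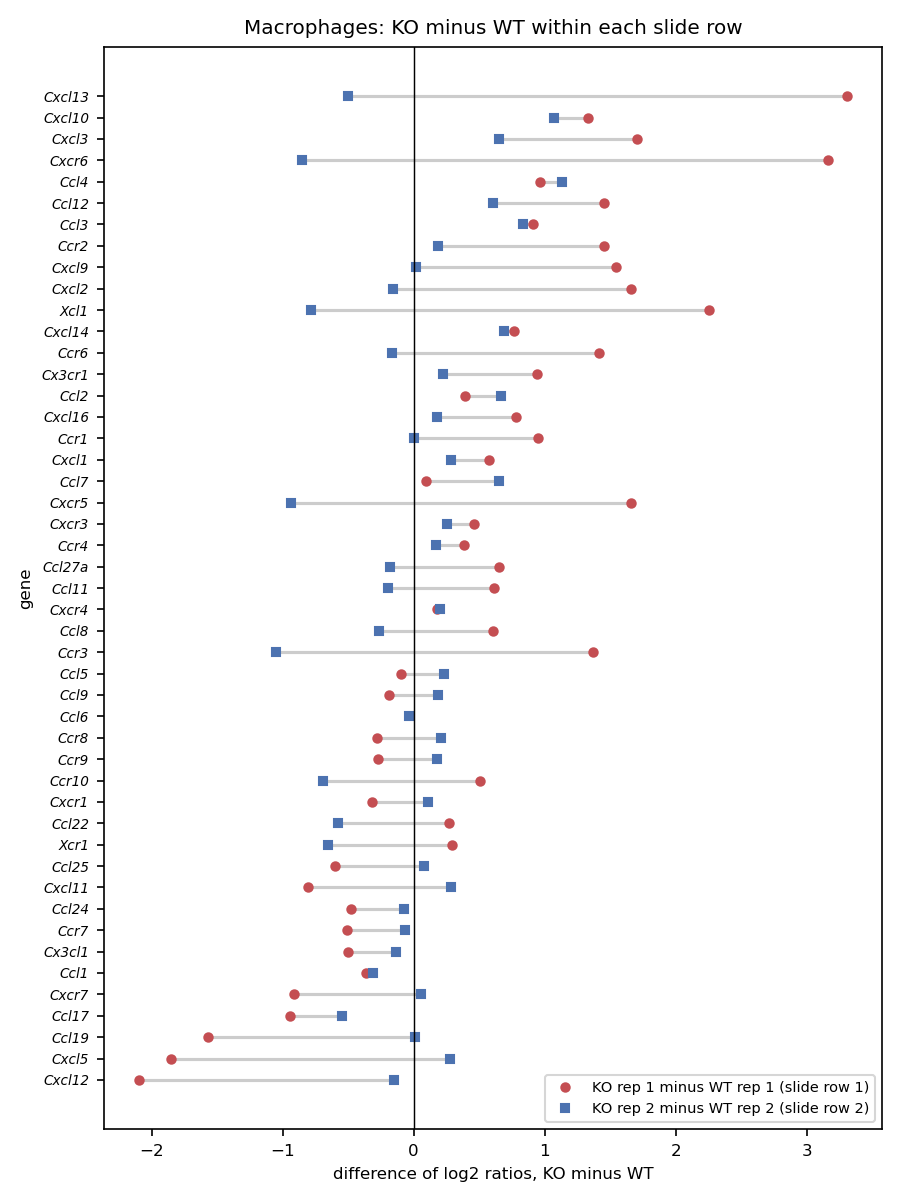
Difference of log2 ratios, KO minus WT, for 47 chemokine genes tested, within slide row 1 (red circles, replicate 1) and slide row 2 (blue squares, replicate 2), ordered by the mean of both. Cxcl13 and Cxcr6 lie on opposite sides of 0 in the 2 rows, and Cxcl10, Ccl4 and Ccl3 have both points close together above 0.

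The Dll1-high and Dll1-low fractions were compared to ask what sets basal cells with high Dll1 apart. With 1 array each there is no test. Chemokine genes differed little: 31 of the 47 that were above background were lower in Dll1-high (55.2% of all probes were), with a median of -0.10 against -0.03. Cxcl10 differed most, at 0.97 in Dll1-high and 2.36 in Dll1-low, a difference of -1.40. It was the only chemokine gene at least 2-fold lower (0.0765% of probes) and none was 2-fold higher (0.0786%). Its second probe, dimmer at median Cy5 signals of 172 and 212 against 1971 and 4771, gave -0.36, 0.32 against 0.68. Past 1.5-fold lower there was also Cxcl11 at -0.69 (1.36% of probes for 2 genes), with the reservation on its probes. For scale, the SD over the 10 spots of a repeated probe in this difference was 0.13 in the median of 399 such probes and 0.26 at their 95th percentile. That spread covers the array alone, not animals or sorts.

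Smaller differences followed in both directions. Lower in Dll1-high were Ccl9 (-0.48), Ccl6 (-0.44), Cxcl12 (-0.43), Ccl5 (-0.42), Ccl4 (-0.42) and Cxcl1 (-0.38), of which Ccl4, Ccl5, Ccl6 and Ccl9 are those far higher in macrophages. Higher were Ccl11 (0.52), Ccl27a (0.48), Cxcl15 (0.47), Ccr8 (0.39), Cxcl16 (0.37) and Cxcr7 (0.34), with Cxcr3 (0.13) and Ccl1 (0.11) next. By Cy5 signal alone Cxcl15 went the other way, at -0.40. No gene passed 1.5-fold upward by its own probe (0.653% of probes did), but another probe of Ccl27a did, at 0.68. Of 10 macrophage markers 7 were lower in Dll1-high, with a median difference of -0.08, and Csf1r (-0.35) and Mrc1 (-0.34) were lowest. Past 1.5-fold lower (1.36% of all probes) were 3 of 6 fibroblast markers and the 3 monocyte markers above background, Plac8, Ms4a4c and Nr4a1. The monocyte marker Ccr2 was not above background in either fraction. Ms4a4c and Nr4a1 were not called between the cell types either (adjusted p of 0.911 and 0.379, limma, cell type as 2 groups). Of 7 luminal markers 6 were lower in Dll1-high (55.2% of all probes were), with a median difference of -0.22. Elf5 was the lowest of them, at 0.27 in Dll1-high and 1.57 in Dll1-low (-1.31). The part of macrophages, monocytes, fibroblasts and luminal cells in these values was not tested. Of the genes that were higher in both Dll1 fractions than in macrophages, Cxcl14 and Cx3cl1 differed least between the fractions, by -0.08 and 0.04.

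**Figure D5:**
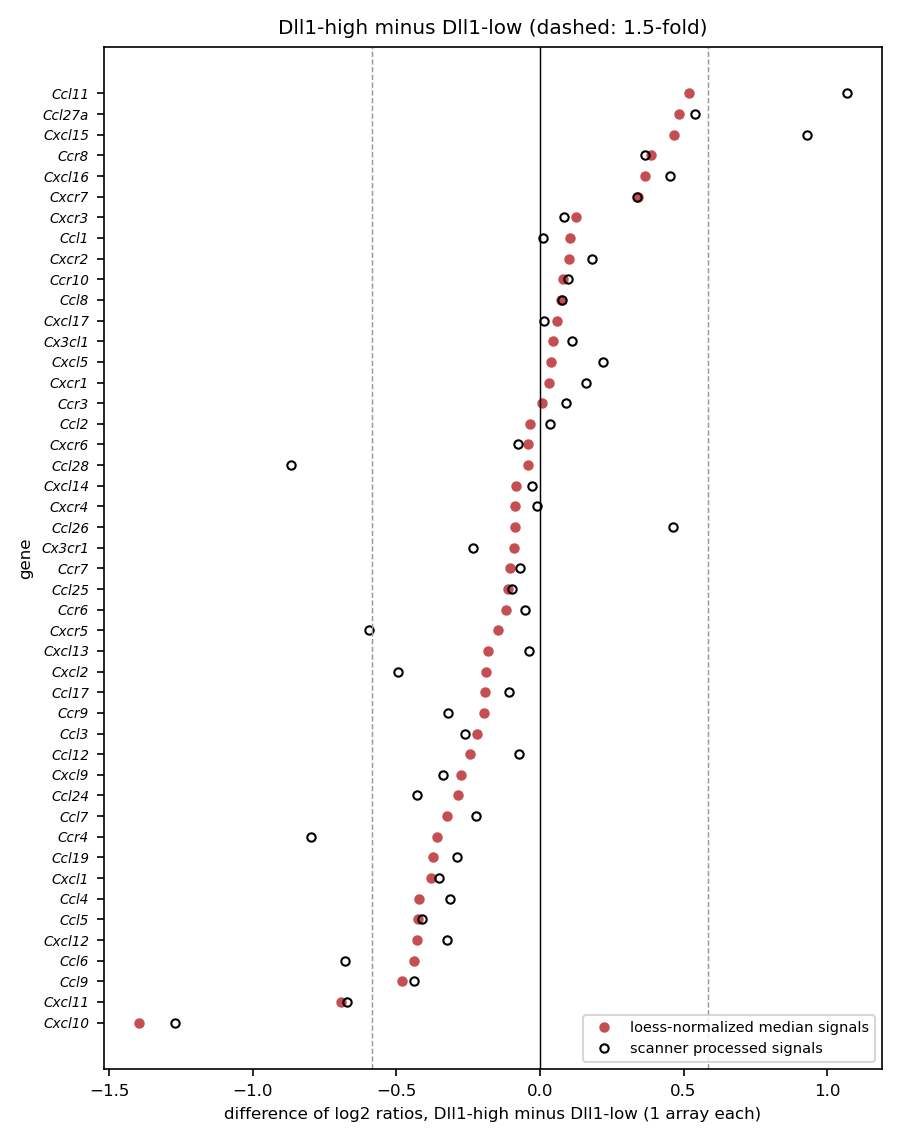
Difference of log2 ratios between the Dll1-high and the Dll1-low array for 46 chemokine genes above background, after loess normalization (filled) and from the scanner's processed signals (open), with dashed lines at 1.5-fold. Cxcl10 lies far left in both, while Ccl28, Ccr4, Cxcl15 and Ccl11 pass a dashed line in the processed signals alone.

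The promoter of Cxcl10 is shown because this gene had the largest difference between the Dll1 fractions, was among those above the Dll1 fractions on all macrophage arrays and is a known target of interferon and NF-kB. The 250 bases before its start lie at chr5:92348890-92349139 on the minus strand of GRCm38.p6 (RefSeq). Capitals mark matches, on either strand, to an interferon response motif (GAAANNGAA) and to an NF-kB motif (GGNNNTTCC), none of which overlap.
Cxcl10 promoter: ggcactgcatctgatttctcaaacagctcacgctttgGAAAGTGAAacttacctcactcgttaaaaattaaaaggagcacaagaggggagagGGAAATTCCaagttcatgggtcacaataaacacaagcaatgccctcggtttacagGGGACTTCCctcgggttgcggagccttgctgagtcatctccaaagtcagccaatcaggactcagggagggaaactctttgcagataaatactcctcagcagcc
The interferon motif lies from -213 to -205 and the NF-kB matches from -158 to -150 and from -103 to -95, counted from the start. Of the 39 chemokine genes with a RefSeq promoter, 13 held the NF-kB motif in this window, among them Cxcl1, Cxcl2, Cxcl3, Cxcl9 and Cxcl10, or 33.3%, against 17.6% of 27025 genes with a promoter (15.7% of 32851 promoters). The interferon motif was in 8, Cxcl9 and Cxcl10 among them, or 20.5%, against 8.18% of genes (7.13% of promoters). Of the 11 such genes called as higher in macrophages, 3 held the NF-kB motif (Cxcl2, Ccl9 and Ccr6) and 2 the interferon motif (Ccl3 and Ccr2). These matches are letters in a window and carry no evidence of binding.

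Genes that act beside the chemokines were read from 3 lists, 48 genes in all. In the fit of cell type as 2 groups, chosen after values were seen, 18 of 48 were called higher in macrophages (3.76% of all probes) and 3 higher in CD24+ CD29-high cells (3.55%). Without WT replicate 1 these counts were 30 and 3 (9.93% and 8.14%), and without any 1 of the other macrophage arrays 14 to 18 and 1 to 2. Of 20 genes of receptor signalling, 11 were higher in macrophages and none lower (13 without WT replicate 1). Rgs1, a brake on G protein signalling, read -0.02 and 0.13 in the Dll1 fractions and 5.80 to 6.72 in macrophages. Vav1, an activator of Rac in blood cells, differed by 4.94 ± 0.35, and both Prex1 and Rac2 were called. Among 18 inducers and feedback genes 5 were higher in macrophages (13 without WT replicate 1 and 3 without any other), with the cytokine Il1b at 0.13 and 0.37 against 6.03 to 6.84. The feedback gene Socs3 was higher in CD24+ CD29-high cells, by 0.87 ± 0.16, a call lost without any 1 of the other 3 macrophage arrays (adjusted p of 0.0601 to 0.098, limma). So were 2 of 10 atypical receptors and related genes, Cxcr7 and Ccrl1, another scavenging receptor, at 3.68 and 2.85 against 0.98 to 1.98. The call of Ccrl1 was lost without KO replicate 1 or KO replicate 2 (adjusted p of 0.0667 and 0.0995, limma). Ccrl1 was also the largest of these between the Dll1 fractions, 0.83 higher in Dll1-high. Arrb1, an arrestin that uncouples receptors, was 0.46 higher there, while Ifnb1 was 0.57 lower (-0.57).

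None of the 46 tested genes of these lists passed the test between KO and WT macrophages (0 by limma, and 0 at an unadjusted p under 0.05). The largest positive differences were those of the inducers Ifnb1 (1.55), Tnf (1.47) and Tnfaip3 (1.38), and WT replicate 1 was the lowest macrophage array for all 3. Ifnb1 read 3.12 and 6.31 in KO and 1.03 and 5.31 in WT, with replicate 2 the higher in both genotypes, as for Ccl8 and Ccl12. The lowest were Rgs2 (-1.40), Rgs16 (-1.09) and Cmtm7 (-0.82). Rgs2 read 0.81 and 4.10 in KO against 3.68 and 4.02 in WT, so that 1 KO array set its value.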

How the data were processed

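Total RNA of 6 samples was hybridised with a reference RNA to arrays of a single design. Per the file headers, the scanner files hold median spot and background intensity values from Agilent Feature Extraction 11.0.1.1 (CD24+ CD29-high cells) and 12.0.2.2 (macrophages), while the submitters' processing notes give 11.0. Log10 ratios of processed sample over reference signals are in the same files, per the file headers. Log2 ratios deposited by the authors in a separate value matrix served as an alternative, as did the processed signals.

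Background was corrected with normexp (offset 50), ratios were normalized by loess within arrays, spots marked by the scanner software were dropped and spots of a probe averaged (R 4.3.3 with limma 3.58.1; tables were read with data.table, version 1.17.8). KO and WT were compared over probes that the scanner called above background in Cy5 on 2 or more of the 4 macrophage arrays, and cell types over those called so there or on both CD24+ CD29-high arrays, with empirical Bayes moderation and Benjamini-Hochberg adjustment over all probes at 0.05. All adjusted p are from limma. The labels do not say whether replicates were separate animals, so p-values cover only how these samples vary, which may be technical, and the number of arrays limits the precision. Probe names are those of the array design, the macrophage files being named through identical probe identifiers, and 64 of 71 member probes matched a RefSeq symbol. Coordinates of probes are on mm9, per the file headers.

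Members, pairs and lists were chosen with earlier results of these data known. Named were the 8 largest differences each way per comparison, all genes called, bright probes, pairs by the smaller of their 2 ratios (up to 12), and the 3 largest differences each way of the pathway lists. Alternatives changed the signal, the centring, the filter, the probe rule, the moderation and the arrays included. The code was tested on simulated data. With 100 probes changed by 4 log2 units, the KO against WT fit and the planned fit between cell types each called 0. The fit of cell type as 2 groups called 69. One member gene is counted among the members but not reported by name here.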

Additional observations from a re-analysis of the deposited data

How the results depend on the processing

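Between KO and WT macrophages 0 chemokine probes were called under every alternative run. The main fit also called 0 of 100 simulated probes changed by 4 log2 units, so this count cannot show that nothing changed. Only 6 of 48 genes (Ccl2, Ccl3, Ccl4, Cxcl10, Cxcl13 and Cxcl14) kept their sign in all alternatives. Centring on the median in place of loess moved the median of all probes from -0.07 to 0.40 and that of the members from 0.22 to 0.87. Between cell types, where the planned fit called 0 probes, the mean of all probes of a gene gave 1 higher in CD24+ CD29-high cells and 5 in macrophages, robust moderation with a trend 1 and 2, and cell type as 2 groups 7 and 19. Leaving out any 1 array gave a lowest and highest count of 0 in both directions, and in KO against WT. Past 1.5-fold between the Dll1 fractions lay 1 probe higher and 2 lower; the processed signals and the authors' value table each gave 5 and 8, Cy5 alone 2 higher, median centring 1 lower, the mean of all probes 0 and 1, and the 2-fold rule 0 and 1. Pairs fell from 24 and 27 to 6 and 2 with both partners 2-fold over the reference. The causes were not tested. No result changed direction among those called.

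The replicate block was fitted for KO minus WT and called 0 members, with a lowest adjusted p of 0.971 (limma). The labels do not say that a number marks a shared animal or day, and the correlation of deviations between same-numbered arrays, 0.576 from 2 pairs, goes with the slide row. Slide as a block was not run, since each cell type lay on its own slide. Weak signal limits the macrophage arrays, where 45.96% to 71.33% of probes were above background.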
